A study of Mus musculus with 31 samples.

Results

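NIPBL binding was compared between stimulated and unstimulated CH12F3 cells, a mouse B lymphoma line used as a model of class switching to IgA. All 4 NIPBL libraries of this line were taken, of 26 libraries with a peak list and 31 samples in the series. Their labels describe the cells as AID-deficient, of strain C57BL/6 and at passage 8 to 10. A pair of libraries came from cells without stimulation and a pair from cells given anti-CD40, IL-4 and TGF-β for 24 h. The line is written CH12F3NCdel in the titles without an explanation of the suffix, and the labels do not say whether the 2 replicates of a group were separate cultures, so that the spread between them may be technical. For comparison, 6 NIPBL lists of AID-deficient C57BL/6 splenic B cells were used. Of these, 3 came from cells without stimulation and 3 from cells cultured with IL-4 and anti-CD40 for 48 h. Rad21 was taken from 7 lists of CH12F3, 3 without stimulation and 4 from cells given anti-CD40, IL-4 and TGF-β for 24 h. The Rad21 labels give passage ranges that start at 8 and end above 10. Lists of both states were not separated when overlaps with Rad21 were counted. The design text of the study concerns the role of cohesin loop extrusion in IgH class switching.

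Cohesin is a ring-shaped complex that holds DNA and can extrude it into growing loops. NIPBL is the protein that loads cohesin onto chromatin and keeps the motor running, and Rad21 is the subunit that closes the ring. In B cells, extrusion is known to bring the switch regions of the IgH locus, the gene for the immunoglobulin heavy chain, next to each other and next to the 3′ regulatory region that lies beyond the α constant gene. NIPBL is found mainly at active promoters and enhancers, whereas Rad21 accumulates where loops are halted.

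The 4 lists held 1312124 and 1070630 peaks without stimulation and 1321406 and 1082968 after it, of which 45.9% to 50.7% had the narrowest width in the lists, 51 bp. The lists give no read counts, so sequencing depth is unknown, and the number and width of peaks are the only measure of precision. Replicate 2 of each group names a control inside its list and replicate 1 names none. The groups overlapped in the number of peaks and in the length they covered. In median width they did not, at 110 and 105 bp without stimulation and 99 and 51 bp after it. A two-sided exact permutation test of 8 such measures gave a smallest p of 0.33 (adjusted p = 1). That is the smallest that 2 against 2 libraries allow, so the test could not show a difference in any of them.

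NIPBL positions depended on how peaks were ranked. When the 20000 peaks of highest -log10 p were kept from each list, their median width was 664 bp in unstimulated replicate 1 but 129 bp in unstimulated replicate 2, 68 bp in stimulated replicate 1 and 51 bp in stimulated replicate 2. Unstimulated replicate 1 therefore stood apart: its kept peaks covered 17.0 Mb, against 5.35, 7.70 and 5.13 Mb in the others. Only 17.6 ± 3.37% of kept peaks were overlapped by at least 1 base by those of the other replicate of the same treatment (SD over 4 ordered pairs), 19.4 ± 8.59% by those of the other treatment with the same replicate number, and 17.0 ± 2.13% where neither matched. No kind of pair stood out, as the ranges of all 3 overlapped. With splenic lists the share was 25.4 ± 11.3% (SD over 24 pairs, 15.7% to 48.2%). Peaks of unstimulated replicate 1 were shared at 39.7% to 48.2% with splenic lists but at 20.3% with unstimulated replicate 2. For unstimulated replicate 2 the order was the other way, at 17.1% to 19.0% with spleen and 20.6% with its own replicate. In a ranking added after these values were seen, by width multiplied by -log10 p, the median widths were 1385, 924, 1143 and 935 bp in the same order of libraries. Shared peaks then rose to 65.9 ± 2.97% within a treatment, 65.2 ± 5.63% within a number and 65.0 ± 2.33% in the remaining pairs, and 60.6 ± 2.76% were shared with splenic lists (24 pairs). This ranking had the highest share within a treatment of the 5 rankings tried, so the share itself is not independent evidence for it. It is used below beside the first ranking because it treats the 4 lists more alike.

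**Figure D1:**
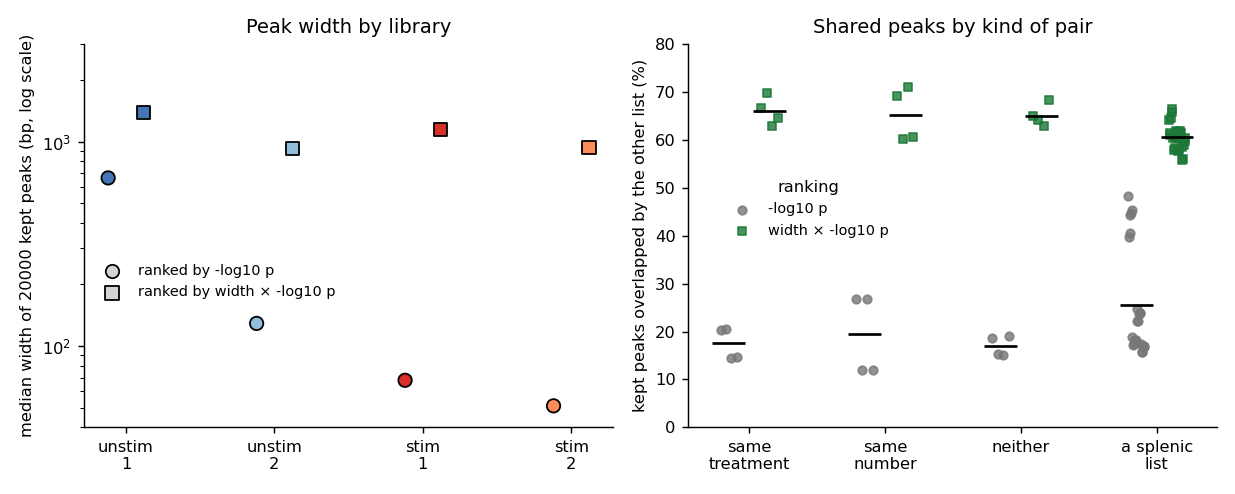
Left, median width in bp (log scale) of the 20000 peaks kept in each of the 4 CH12F3 NIPBL lists, ranked by -log10 p (circles) or by width × -log10 p (squares). Right, percent of a list's kept peaks overlapped by another list's, each point an ordered pair of lists and each bar the mean; pairs of the same treatment, the same replicate number and neither have means of 17.0% to 19.4% under the first ranking and of 65.0% to 65.9% under the second, and pairs with a splenic list are at the right.

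A core of NIPBL sites was present in both states. Merging the peaks of highest -log10 p gave 66371 sites, of which 2046 had a peak in all 4 lists, 837 in both unstimulated lists alone and 69 in both stimulated lists alone. By the same ranking 1599 sites were found in both replicate 1 lists alone and 49 in both replicate 2 lists alone. The common sites were wide, with a median of 1447 bp. Of them, 24.1% overlapped a Rad21 top peak of CH12F3 and 99.0% a NIPBL top peak of at least 1 splenic list; 88.5% did so in all 6 splenic lists. Rad21 was about as frequent in sites of a pair of lists alone. It overlapped 24.4% of those in both unstimulated lists alone and 20.3% of those in both stimulated lists alone. For replicate 1 alone and replicate 2 alone the shares were 21.3% and 24.5%. Sites found in 1 list alone were narrower and less often shared, and widths were not matched in these comparisons. In the lists other than unstimulated replicate 1 their median width was 51 bp, 1.77% to 2.15% carried Rad21 and 1.94% to 2.62% were found in spleen. Those of unstimulated replicate 1 were 296 bp wide, with Rad21 at 11.9% and splenic NIPBL at 36.7%. Ranked by width and -log10 p, 9940 of 34777 sites were common to all 4 lists, with Rad21 at 20.5% and splenic NIPBL at 96.8%. Sites in 1 list alone had Rad21 at 11.8% and splenic NIPBL at 29.9%. Rad21 overlapped 18.2% of sites in both stimulated lists alone and 17.3% of those in both unstimulated lists alone. By that ranking 763 sites were found in both stimulated lists alone and 1050 in both unstimulated lists alone. The corresponding numbers for replicate 1 alone and replicate 2 alone were 1138 and 473.

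The best-ranked common sites were a few stretches with very high fold enrichment in every list. The first, on chromosome 2 from 98506303 to 98507501 (mm9), had fold enrichments of 15570 and 17622 without stimulation and 15501 and 11755 after it in the authors' lists. The second, on chromosome 12 from 3109703 to 3110128, reached 4425, 8063, 4388 and 3831 in the same order, and the third, on chromosome 6 from 103599035 to 103599297, reached 2164, 2606, 1949 and 1574. These folds stood far above the median over common sites, 9.34 to 13.9 by list. Between 7 and 22 common sites per list exceeded 100-fold. Whether such stretches reflect binding was not tested, and no regions were masked.

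The planned test called no 10 kb bin as changed in NIPBL coverage after stimulation. With 2 lists against 2, the lack of a call does not show that coverage stayed the same. The value of a bin is the percent of its bases under kept peaks. Of 12315 bins covered in at least 2 of the 4 lists, limma called none higher (0.0%) and none lower (0.0%) at a Benjamini-Hochberg adjusted p under 0.05, and the smallest adjusted p was 0.353. Without adjustment, 511 bins (4.15%) were higher and 777 (6.31%) lower at p under 0.05. The groups did not overlap in 1203 bins (9.77%) with higher and 2378 (19.3%) with lower values after stimulation. That direction turned with the peaks used: without unstimulated replicate 1, the list with the widest peaks, 2885 bins (37.9%) were higher and 1767 (23.2%) lower, with 1 unstimulated list left. At an equal covered length 4217 (20.8%) were higher and 1908 (9.4%) lower, and with peaks of -log10 q of 5 or more 30574 (16.4%) and 19435 (10.4%). Within replicate number 1 the difference was positive in 30.9% of bins and within number 2 in 39.5%. It was positive in both at 13.2% of bins, negative in both at 25.9% and of opposite sign at 36.5%. Across bins, the differences of the 2 replicate numbers were almost unrelated (Pearson's r = 0.02 over 12315 bins, which share the 4 libraries and are no replicates). Ranked by width and -log10 p, limma again called none of 18356 bins in either direction (0.0% each, smallest adjusted p = 0.282), with 714 higher (3.89%) and 925 lower (5.04%) before adjustment, and r was 0.06.

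The 10 higher ones had no kept peak in either unstimulated list and were covered at 1.47% to 1.72% in the stimulated lists, about the length of a few of the narrowest peaks. By width and -log10 p, 9 of these 10 were at 0 in both groups. The 10 lower ones were covered at 16.4% to 32.6% in the unstimulated lists, and 8 of them had no kept peak in either stimulated list. One was the chromosome 3 bin starting at 65330001, with 22.7% and 21.1% before and 0 and 0 after stimulation, a difference of -21.9 points (SE 2.74, limma adjusted p = 0.353). Ranked by width and -log10 p the same bin held 22.7%, 21.1%, 19.0% and 18.8%. By that ranking, 9 of these 10 bins were still covered in both stimulated lists, at up to 40.4%. In 7 of those 9 bins neither stimulated list had a peak among the 20000 of highest -log10 p. With all deposited peaks, all 10 were covered in every list, at 19.6% or more. The exception by width and -log10 p was the chromosome 2 bin starting at 167600001, which went from 48.7% and 38.9% to 16.2% and 0.

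Calls appeared when the 6 splenic NIPBL lists shared the estimate of the spread. That fit called 70 higher (0.227%) and 186 lower (0.603%) of 30857 bins with the first ranking. With the ranking by width and -log10 p it called 326 higher (1.24%) and 291 lower (1.11%) of 26307. Only 3 bins in each direction were called by both. Of the latter calls, 265 of the higher and 182 of the lower bins had no kept peak in any splenic list, so that spleen added no spread to them, and 291 of the higher bins were at 0 in both unstimulated lists. None of these bins passed without the splenic lists. The calls therefore rest on the assumption that the line varies as little as spleen.

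Called losses of NIPBL kept groups apart with all deposited peaks more often than called gains did. Among the 10 largest of each, this did not hold under every choice of peaks. The strongest loss lay in the chromosome 10 bin starting at 27540001, which was covered at 57.7% and 51.6% before stimulation and at 0 and 0 after it (difference -54.7 points, SE 6.01, adjusted p = 0.00389 with all groups in 1 fit). By the first ranking it had no kept peak in any of the 4 lists, as did 6 of the 10 largest losses. With all deposited peaks it held 58.2% and 51.6% before and 21.1% and 20.4% after. A second was the chromosome 6 bin starting at 114480001, at 60.6% and 54.5% before and 12.6% and 10.3% after, and at 77.7%, 68.9%, 49.9% and 43.2% with all deposited peaks. The chromosome 6 bin starting at 114540001 went from 71.5% and 58.4% to 28.9% and 26.0%. The chromosome 2 bin starting at 21920001 went from 54.0% and 34.0% to 0 and 0, and with all deposited peaks from 54.0% and 46.0% to 19.6% and 28.5%. All 10 of the largest called losses had groups without overlap in the same direction with all deposited peaks, where 14.6% of all tested bins did; the bins were chosen on peaks of the same lists, so this is a description. Over all 291 called losses, 122 (41.9%) did so.

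The chromosome 8 bin starting at 126890001 was covered at 0 and 0 before and 26.5% and 27.1% after stimulation (difference 26.8 points, SE 1.28, adjusted p = 0.000622 with all groups in 1 fit). With all deposited peaks it held 40.1% and 17.9% before and 43.5% and 35.6% after, and the groups overlapped. The chromosome 11 bin starting at 32460001 went from 35.0% and 25.8% to 63.1% and 60.5%, against 76.3%, 43.1%, 70.9% and 65.5% with all deposited peaks. In none of the 10 largest called gains were the groups apart with all deposited peaks, and over all 326 gains 45 (13.8%) were, beside 13.4% of all tested bins. With peaks of 300 bp or wider the order was the other way for the 20 named bins: the groups were apart in 4 of 10 gains and 2 of 10 losses, beside 11.6% and 20.1% of all tested bins. Over all calls it was not, at 62 of the 326 gains (19.0%) and 85 of the 291 losses (29.2%) by that choice. With peaks of -log10 q of 5 or more they were apart in 125 of the 326 gains (38.3%) and 158 of the 291 losses (54.3%). Of all tested bins, 16.4% were higher and 10.4% lower without overlap by that choice. No mm9 annotation was used, so no gene is named for any of these bins.

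**Figure D2:**
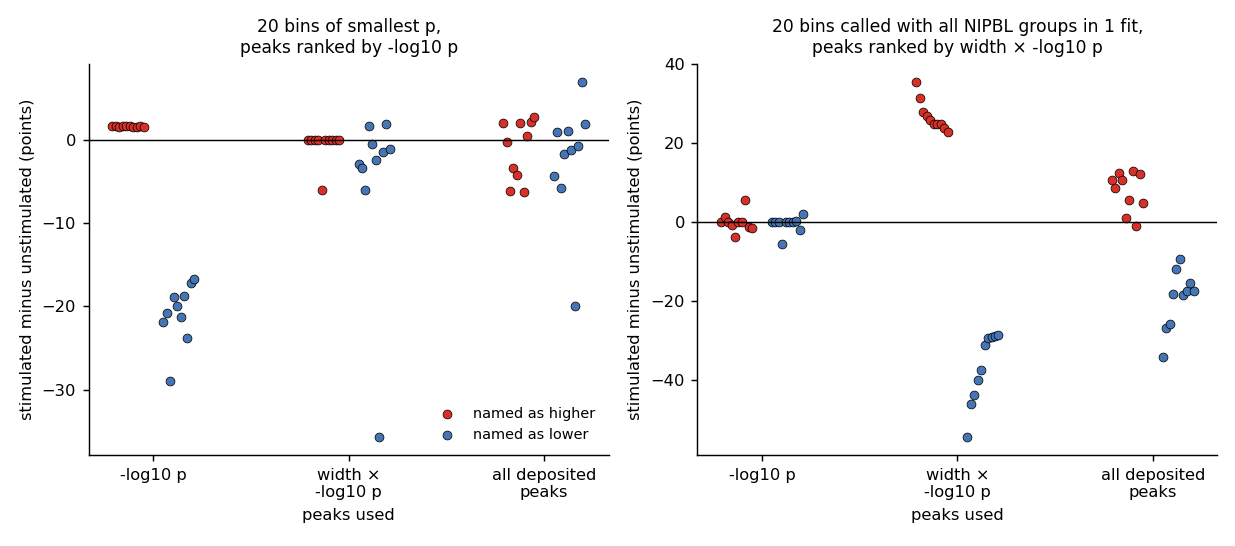
Difference in covered percent (points, mean of 2 stimulated minus mean of 2 unstimulated lists) of 20 bins of smallest p with peaks ranked by -log10 p (left) and 20 bins called with all NIPBL groups in 1 fit and peaks ranked by width × -log10 p (right), under 3 choices of peaks. Red points were named as higher and blue points as lower; away from the ranking that chose them most differences shrink, and with all deposited peaks the 10 losses on the right all keep their sign.

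At the IgH locus NIPBL lay mainly toward the lower coordinates of the region and in 1 bin near its upper end, in both states. The region was taken as 40 bins of chromosome 12 from 114300001 to 114700000; the genes lie there by ascending coordinate from Igha to Ighm, and their mm9 positions were not worked out. Ranked by width and -log10 p, 12 sites of this region had a kept peak in all 4 lists. The one with the highest fold in both replicate 1 lists ran from 114491526 to 114493082, with fold enrichments of 13.5 and 9.65 without and 12.3 and 7.70 with stimulation in the authors' lists. It was kept in 1 of the 6 splenic lists, whereas 8 of the 12 sites were kept in all 6. No Rad21 top peak of CH12F3 overlapped it. Rad21 top peaks overlapped 4 of the 12 sites, 3 of them in all 7 Rad21 lists: those starting at 114311638, 114382534 and 114460178. Near the upper end, the site from 114660053 to 114663883 had folds of 6.51, 6.90, 5.31 and 4.48 and no Rad21 top peak.

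No IgH bin passed a test for a change with stimulation. In the bin starting at 114490001, peaks of highest -log10 p covered 12.4% and 13.1% before and 9.24% and 14.1% after stimulation, with overlapping groups, while all 6 splenic lists were at 0. By width and -log10 p, splenic means were 5.94 ± 5.15% without and 2.90 ± 5.02% with stimulation (SD, n = 3). Values of the bin starting at 114660001 depended on the peaks used. It held a kept peak in unstimulated replicate 1 alone by the first ranking. Peaks ranked by width and -log10 p covered 36.8% and 29.8% of it before and 30.4% and 32.2% after; the splenic means were 51.5 ± 7.17% without and 44.3 ± 3.11% with stimulation (SD, n = 3). With peaks of -log10 q of 5 or more it held 42.9% and 33.1% before and 11.2% and 0 after, without overlap (limma adjusted p = 0.953, unadjusted p = 0.00931). Of 15 bins covered in 2 or more lists by width and -log10 p, 1 was higher (12.4% of all tested bins were) and 5 lower (19.2% of all) without overlap, and each had a two-sided exact permutation p of 0.33 at best (adjusted p = 1). The higher one started at 114330001, with 17.8% and 17.0% before and 25.1% and 34.1% after. Under the first ranking 2 of 7 such bins were lower (19.3% of all tested bins were) and none higher. Between 114680001 and 114720000, no CH12F3 list held any deposited peak; in spleen all 4 of these bins held a peak in some list, at 1.47% coverage on average, and none in all 6.

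**Figure D3:**
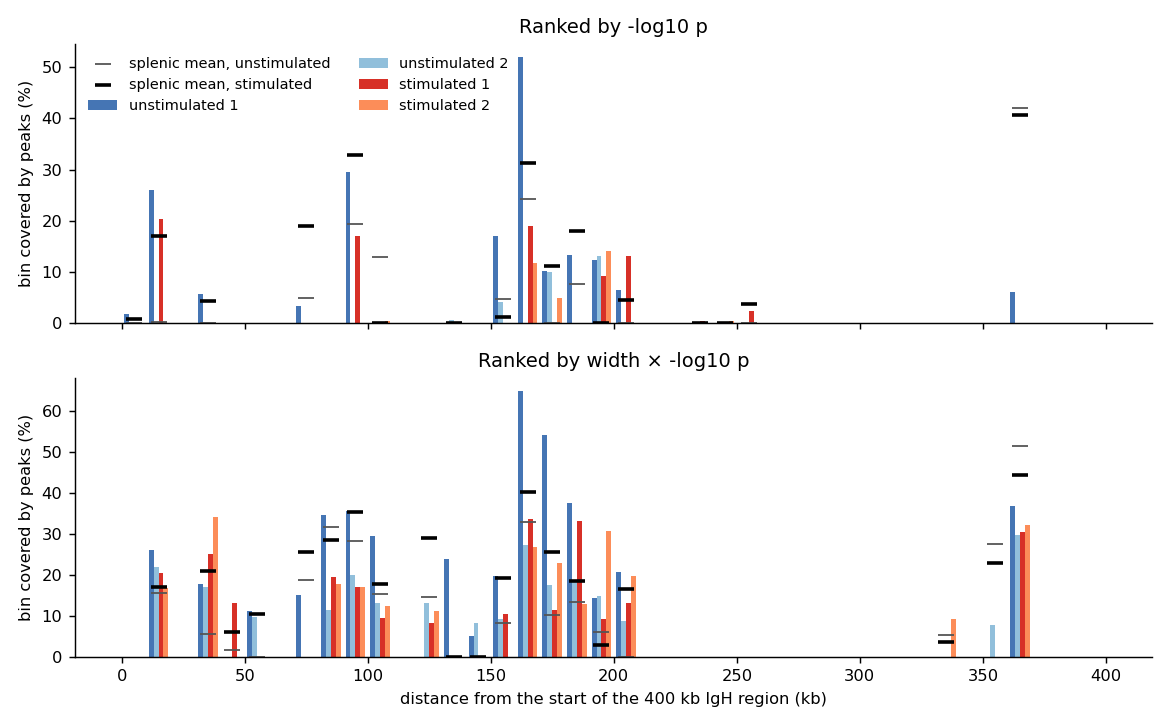
Percent of each 10 kb bin of the IgH region covered by kept NIPBL peaks, by distance from the region's start in kb, with peaks ranked by -log10 p (top) or by width × -log10 p (bottom). Bars are the 4 CH12F3 lists and dashes the splenic group means (n = 3), drawn where at least 1 CH12F3 list has a kept peak; in the lower plot bars of both treatments stand between 160 and 210 kb and at 360 kb.

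Windows of genes that mark B cells carried NIPBL, and most windows of other lineages were covered little when taken whole. Gene windows of 50 kb or more were placed at approximate mm9 positions from general knowledge, so a window may miss part of a gene. The values that follow are percent of a window covered by peaks ranked by width and -log10 p, the 2 unstimulated lists first. Cd79b, a signalling chain of the B cell receptor, held 20.5%, 14.1%, 17.2% and 14.2%. Its partner Cd79a held 19.8%, 14.1%, 15.1% and 11.1%. The window of Pax5, which encodes a transcription factor of B cell identity, held 5.59%, 3.36%, 8.02% and 6.66%. The T cell receptor β locus Tcrb and the liver gene Alb were at 0 in all 4 lists, the α locus Tcra at 0.514% to 0.662%, and Cd3e, a T cell receptor chain, at 3.85%, 2.42%, 1.33% and 1.56%. The low value of the Tcra window hides a densely covered bin. Starting at 54840001 on chromosome 14, it held 73.9%, 62.7%, 53.0% and 38.5%. Among whole windows of other lineages the exception was Cd4, a T cell gene in a gene-dense stretch, at 12.9%, 10.0%, 10.1% and 2.01%. The Y chromosome held 0.00402% to 0.00568% of deposited peaks, against 0.0310% to 0.0404% in spleen.

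Most windows of CD40, IL-4 and TGF-β response genes already held NIPBL peaks without stimulation, and 13 of 17 held a kept peak in all 4 lists. So did 24 of all 31 windows and 3 of 5 windows of other lineages. The share among windows elsewhere in the genome was not worked out. Il4i1, which encodes an amino acid oxidase induced by IL-4, held 44.0% and 22.2% before and 29.8% and 22.3% after. Runx3, a transcription factor that acts with TGF-β on the IgA promoter, held 29.7% and 15.3% before and 19.2% and 19.8% after, where unstimulated spleen held 6.98 ± 1.83% (SD, n = 3) and spleen after CD40 and IL-4 15.1 ± 3.67%. Socs1, an inhibitor of cytokine signalling, held 18.4% and 16.1% before and 26.0% and 13.6% after, against 6.89 ± 0.788% in unstimulated spleen. In these 3 windows both groups of CH12F3 overlapped. Bcl6, a transcriptional repressor expressed in germinal centre B cells, was at 0, 1.02%, 0 and 0, below the splenic means of 7.96 ± 2.26% and 6.26 ± 2.08%. Tgfbi was at 0 in all 4 lists.

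A few single bins of response genes had a kept peak only after stimulation, and others only before it. In the window of Irf4, a transcription factor of activated B cells, the bin starting at 30850001 on chromosome 13 went from 0 and 0 to 9.36% and 9.79%, with all deposited peaks from 29.9% and 23.3% to 30.3% and 31.2% (limma adjusted p = 0.282). For Il4ra, the IL-4 receptor chain, the bin starting at 132700001 on chromosome 7 went from 0 and 0 to 12.1% and 10.3%, but with all deposited peaks its groups overlapped. Smad3, a mediator of TGF-β signals, held bins in both directions: the one starting at 63560001 on chromosome 9 went from 0 and 0 to 13.9% and 20.9%, and its neighbour starting at 63550001 from 34.6% and 19.7% to 7.61% and 4.46%. With all deposited peaks the groups of both Smad3 bins overlapped. The Socs1 bin starting at 10800001 on chromosome 16 went from 4.03% and 5.51% to 0 and 0. By the first ranking the Fcer2a bin starting at 3670001 on chromosome 8 went from 7.87% and 5.42% to 0 and 0. The Smad3 bin starting at 63600001 fell there from 32.7% and 18.1% to 0 and 0, and that starting at 63580001 rose from 0 and 0 to 3.65% and 3.40%. With all deposited peaks the groups stayed apart in the Socs1 bin and overlapped in the Fcer2a bin and these Smad3 bins. None of the bins named in this paragraph passed limma's adjusted threshold. Ranked by width and -log10 p, 55 bins of the 17 response windows were tested. Without overlap, 9 were higher and 4 lower, beside 12.4% and 19.2% of all tested bins. At an unadjusted limma p under 0.05, 5 were higher and 2 lower (3.89% and 5.04% of all tested bins). The median difference was 0.98 points in the 55 bins and -0.66 over all 18356. Under the first ranking 4 of 28 response bins were higher and 3 lower without overlap (9.77% and 19.3% of all tested bins). Their median difference was -0.26 points, and that over all tested bins was -0.54. With 40000 peaks per list 5 of 50 response bins were higher and 12 lower without overlap (12.3% and 17.3% of all tested bins). Their median was -1.28 points, against -0.265 over all tested bins. With all deposited peaks 9 of 116 were higher and 9 lower (13.4% and 14.6% of all tested bins), with a median of -0.83 points against -0.17. At an equal covered length the medians of response bins and of all tested bins were 0.575 and 0 points. They were 0.75 and -0.58 with peaks of 300 bp or wider, and 0.2225 and 0.14 with -log10 q of 5 or more. For 10000 peaks they were -0.4025 and -0.83. In the 27 bins of B cell identity windows tested by width and -log10 p, 2 were higher and 3 lower without overlap. Of all tested bins 12.4% and 19.2% were. The median in these 27 bins was -0.38 points. Of all 31 windows taken whole, 4 were higher and 2 lower without overlap. The shares given for 10 kb bins do not apply to whole windows. No share over windows elsewhere in the genome was worked out, so these counts are a description only.

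**Figure D4:**
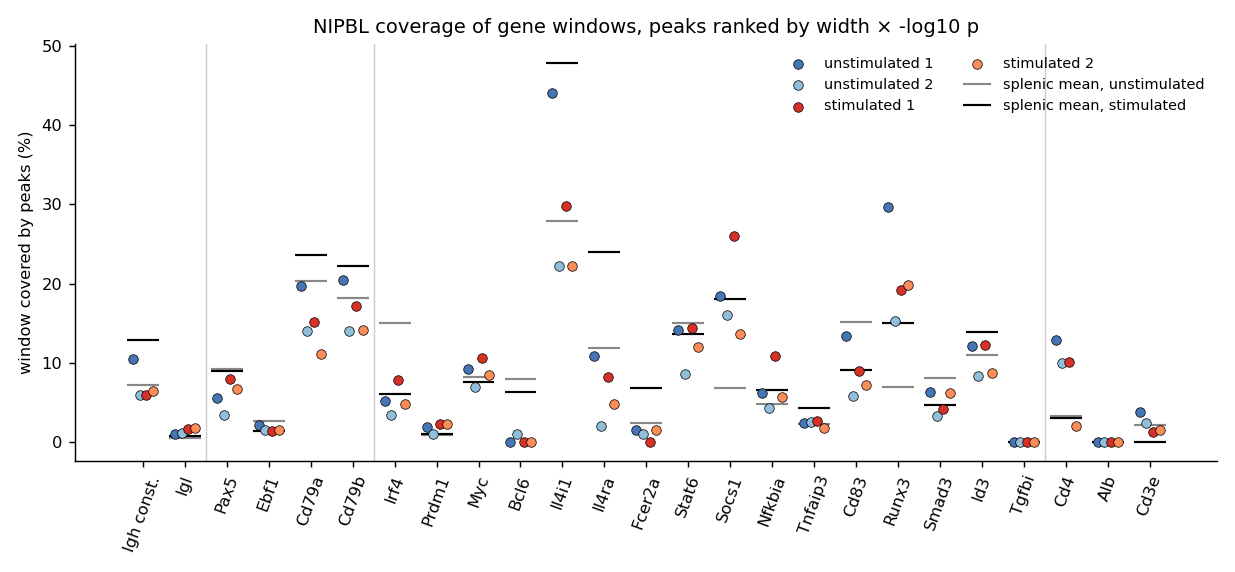
Percent of each gene window covered by NIPBL peaks ranked by width × -log10 p, for most windows of up to 500 kb; points are the 4 CH12F3 lists, lines the splenic group means (n = 3), and grey verticals separate immunoglobulin, B cell identity, response and other-lineage windows. In most windows the stimulated and unstimulated points are interleaved; Tgfbi and Alb lie at 0.

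The effect of stimulation differed from that in spleen at few bins under the planned test. The cytokines and times differ between the cell types, 24 h with TGF-β against 48 h without it, and cannot be told apart from the cell type. Of 30857 bins, limma's interaction term called 1 with a higher (0.00324%) and 2 with a lower (0.00648%) effect in CH12F3. In 2 of these the CH12F3 lists were all at 0 and the difference came from spleen. The third, on chromosome 9 from 77390001, held 21.2%, 20.4%, 0 and 0 in CH12F3, while splenic lists went from 0 to between 16.2% and 17.7% (difference of effects -37.6 points, SE 2.26, adjusted p = 0.00536). Ranked by width and -log10 p it held 21.2%, 20.4%, 18.8% and 15.8%, and splenic means were 18.1 ± 3.48% without and 16.8 ± 0.761% with stimulation (SD, n = 3). By that ranking 406 (1.54%) and 591 (2.25%) of 26307 bins were called. In the chromosome 10 bin starting at 27540001 NIPBL covered 44.7 ± 10.1% of unstimulated and 54.7 ± 1.16% of stimulated spleen (SD, n = 3), where CH12F3 fell to 0.

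Part of chromosome 4 was nearly without NIPBL in CH12F3. Of 264199 bins, 8810 held no deposited peak in any of the 4 lists, and 147 of these held one in all 6 splenic lists. The longest runs of such bins had 4 bins each and started at 88790001 and 88930001 on chromosome 4, and 2 more of the 5 longest lay between 88700001 and 88780000. Together they fell into a stretch from 88680001 to 89020000, whose borders were set after its values were seen, by extending the span of these runs outward over bins with a mean coverage under 1% in the 4 lists; single bins inside may be above it. Over its 34 bins the deposited peaks covered 0.139% and 0.218% without stimulation and 0.191% and 0.060% with it, against 4.50% to 6.89% in 20 bins on either side. In spleen the same bins were covered at 4.66% to 8.50%, and the flanks at 2.77% to 5.81%. None of the 7 Rad21 lists of CH12F3 had a deposited peak in the stretch, and each had 27 to 138 in the flanks. Whether the line lacks this DNA was not tested.

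**Figure D5:**
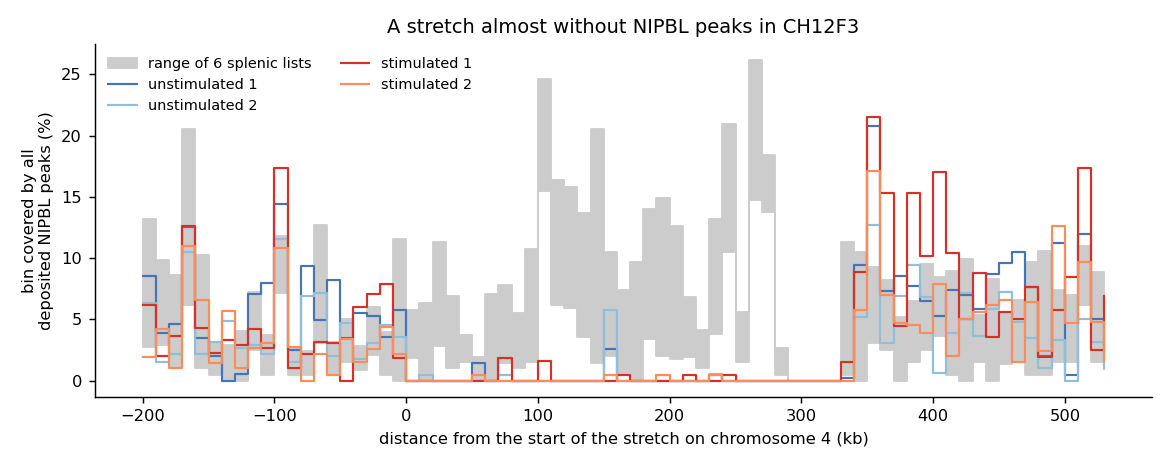
Percent of each 10 kb bin covered by all deposited NIPBL peaks around the chromosome 4 stretch, by distance from its start in kb; lines are the 4 CH12F3 lists and the grey band spans the 6 splenic lists. From 0 to 340 kb the 4 lines lie at 0 in most bins, with 1 bin at 150 kb where unstimulated replicate 2 reaches 5.81%, and on both sides most bins are covered.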

How the data were processed

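NIPBL ChIP-seq was analysed from 1 peak list per library. The submitters' processing notes name Bowtie2, MACS2 and mm9, with versions not given in the sources used. The authors deposited, per the file headers and column layout, a fold enrichment (ratio), -log10 p, -log10 q and a score for every peak. These values describe a peak within 1 list and served only to rank, filter or describe peaks. The fold is therefore no measure of change between libraries. Coverage of a bin moves with how much was called in a list and with which peaks are kept.

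From each list the 20000 peaks of highest -log10 p on 21 main chromosomes were kept, and the percent of each 10 kb bin they cover was compared by limma (version 3.58.1, two-sided, with a mean-variance trend, under R 4.3.3) over bins covered in 2 or more lists of the fit. Other steps used scipy 1.17.1, statsmodels 0.14.6, pandas 2.3.3, matplotlib 3.10.9 and numpy 2.4.6 in Python 3.11.15. Gene windows are approximate mm9 positions from general knowledge. By rule the text may name the 10 called bins per direction with the largest difference, or of smallest p where none is called, if the groups do not overlap (and, for the latter, the sign is the same within both replicate numbers), as well as IgH bins, the windows, the 10 best-ranked common sites and the 5 longest empty runs. The ranking by width and -log10 p, its fit with all groups, the bins named from it and single bins of gene windows were chosen after seeing the data. The members, lists and tests were chosen with earlier results of these data known. Replicate numbers mark no shared batch or culture in the labels. Input samples and other Rad21 lists were not used here. Some gene windows enter the counts but are not reported here singly.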

Additional observations from a re-analysis of the deposited data

Results flagged for a closer look

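The outlier test could not be applied, since no group compared here has 4 or more libraries. The bins below are those named above whose effect of stimulation in CH12F3 differed from that in spleen by limma's interaction term (adjusted p under 0.05); cytokines and times differ too, and no explanation was tested. Under the planned ranking by -log10 p the differences of effects, CH12F3 minus spleen, were 38.2 points on chromosome 14 from 15180001, -29.7 points on chromosome 15 from 91730001 and -37.6 points on chromosome 9 from 77390001. In the first pair CH12F3 was at 0 in all 4 lists. Ranked by width and -log10 p, the effect was higher in CH12F3 by 37.0 points on chromosome 11 from 32460001, 26.8 points on chromosome 8 from 126890001, 25.0 points on chromosome 15 from 102560001, 24.9 points on chromosome 4 from 119730001, 24.8 points on chromosome 16 from 33940001, 23.4 points on chromosome 8 from 126800001 and 22.7 points on chromosome 1 from 133540001. It was lower by that ranking on chromosome 6 from 114480001 (-75.4 points) and from 114540001 (-46.1 points), on chromosome 2 from 21920001 (-67.6 points), on chromosome 10 from 27540001 (-64.7 points), on chromosome 4 from 140590001 (-37.0 points) and from 141610001 (-31.2 points), on chromosome 14 from 70250001 (-29.4 points) and on chromosome 17 from 57040001 (-29.3 points). These bins were chosen for their difference in CH12F3, so their number says nothing about the genome.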

How the results depend on the processing

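No alternative with the 4 CH12F3 lists alone called a bin in either direction, and leaving out any 1 list did not either (0 to 0 by limma, with 3 to 1337 bins per direction at an unadjusted p under 0.05); a lone list is then assumed to vary like the other group. With a replicate block limma called 0 bins higher and 0 lower (smallest adjusted p = 0.535, 492 and 654 bins at an unadjusted p under 0.05). Same-numbered lists deviated together (r = 0.31 over 12315 bins, 0.12 ranked by width and -log10 p), but the labels give no shared batch. All NIPBL groups in 1 fit called 70 and 186, and 326 and 291 ranked by width and -log10 p; the splenic lists add the spread. Bins whose effect was higher and lower than in spleen numbered 1 and 2, and by alternative 66 and 130 (bins covered in 1 or more lists), 145 and 363 (no trend), 240 and 274 (10000 peaks), 15 and 76 (40000 peaks), 0 and 0 (all deposited peaks), 1829 and 535 (equal covered length), 0 and 0 (-log10 q of 5 or more), 3 and 11 (50 kb bins), 88 and 204 (peaks of 300 bp or wider), 406 and 591 (width and -log10 p), 109 and 245 (width and -log10 p in 50 kb bins). Without 1 CH12F3 list they ranged from 4 to 185 and from 2 to 3209, the last without unstimulated replicate 2; the cause was not tested. Shared peaks in percent (same treatment, same number, neither) came to 22.6, 25.7 and 21.6 for 10000 peaks, 65.9, 65.2 and 65.0 for width and -log10 p, 54.9, 54.9 and 54.5 for peaks of 1000 bp or wider, 49.0, 49.0 and 48.2 for peaks of 300 bp or wider, 51.3, 51.6 and 50.7 for the widest peaks, 13.9, 15.3 and 13.8 for 40000 peaks, 29.8, 29.4 and 29.6 for all deposited peaks; the rankings by width were added after seeing the data. Sites in all 4 lists numbered 1286 (10000 peaks), 3315 (40000 peaks), 9940 (width and -log10 p). The percent of bins higher in both replicate numbers was 22.6 (all deposited peaks), 24.3 (equal covered length), 21.4 (-log10 q of 5 or more), and lower in both 13.0 (equal covered length), 14.7 (-log10 q of 5 or more). Covered length changed by -14.1 (all deposited peaks) Mb, against -4.78 Mb. Nearly all of this came from replicate 1, at -28.5 and -9.34 Mb, as replicate 2 changed by 0.282 and -0.218 Mb. IgH bins higher and lower without overlap numbered 0 and 2 of 7, and 1 and 5 of 15 (width and -log10 p), 2 and 4 of 38 (all deposited peaks), 1 and 7 of 32 (-log10 q of 5 or more). Window bins numbered 7 and 9 of 71, and 12 and 13 of 105 (width and -log10 p), 150 and 157 of 1097 (all deposited peaks), 2 and 9 of 45 (10000 peaks), 16 and 31 of 155 (40000 peaks), 24 and 13 of 105 (equal covered length), 120 and 100 of 808 (-log10 q of 5 or more), 11 and 12 of 105 (peaks of 300 bp or wider). The shares over all tested bins, in the same order, were 9.77% and 19.3%, 12.4% and 19.2%, 13.4% and 14.6%, 457 and 1190 of 6167 bins, 12.3% and 17.3%, 20.8% and 9.4%, 16.4% and 10.4%, and 11.6% and 20.1%. Of the 20 bins of smallest p, these changed sign, in points by chromosome and start: -log10 q of 5 or more at 11:35240001 (-0.205), 16:80610001 (-0.655), 18:35020001 (-15.0), 17:50660001 (-4.00), 15:81410001 (0.150), 16:17230001 (1.78), 12:112950001 (5.58); width and -log10 p at 18:35020001 (-6.08), 15:81410001 (1.59), 12:112950001 (1.90); peaks of 300 bp or wider at 18:35020001 (-21.6), 15:81410001 (1.59), 12:112950001 (1.90); 40000 peaks at 18:35020001 (-21.9), 12:112950001 (1.90); all deposited peaks at 16:80610001 (-0.295), 3:31360001 (-6.14), 3:53170001 (-3.39), 18:35020001 (-4.21), 17:50660001 (-6.25), 9:77390001 (0.885), 16:37860001 (0.990), 12:112950001 (6.96), 4:129010001 (1.93); equal covered length at 18:35020001 (-4.74). Of the 20 called with all groups and width, these did: highest -log10 p at 14:34140001 (-0.115), 14:22560001 (-3.75); peaks of 300 bp or wider at 4:140590001 (0.300); 40000 peaks at 14:34140001 (-0.925), 11:32460001 (-9.93), 14:22560001 (-5.83), 8:126800001 (-11.3); all NIPBL groups in 1 fit at 14:34140001 (-0.115), 8:126890001 (-0.705), 14:22560001 (-3.75), 17:57040001 (0.255), 7:146580001 (2.01); all deposited peaks at 16:33940001 (-1.02); equal covered length at 14:34140001 (-0.115), 11:32460001 (-0.420), 14:22560001 (-3.75), 8:126800001 (-3.10). Only bins that a fit tested are listed; by highest -log10 p, the differences at 8:126800001 (-1.33) and 1:133540001 (-1.65), covered in 1 list, and those given for all NIPBL groups in 1 fit had the opposite sign too. The cause of these changes was not tested. Peak lists hold no counts, so depth limits cannot be given.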

Other observations

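The share of covered length by chromosome set the line apart from spleen in both states. In 11 of 21 chromosomes the 4 CH12F3 lists lay outside the range of the 6 splenic lists, a comparison chosen after its values were seen and not tested. Chromosome 14 held 5.15% to 5.36% of the length covered by all deposited NIPBL peaks, against 3.76% to 4.10% in spleen (1.33 times the splenic mean). Chromosome 16 held 4.48% to 4.59% against 3.30% to 3.69% (1.29 times), and chromosome 11 held 7.31% to 7.51% against 5.93% to 7.06% (1.15 times). The X chromosome held 1.60% to 1.87% against 2.19% to 3.42% (0.616 times). Whether the number of copies of these chromosomes differs was not tested.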
